A study of Homo sapiens with 21 samples.

Results

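The genes described here are 10 members of the splicing machinery's regulatory layer in hTERT-HPNE cells, an immortalized line of nontransformed pancreatic cells. They are the SR proteins SRSF1, SRSF2, SRSF3, SRSF4, SRSF5, SRSF6 and SRSF7 and the kinases CLK1, CLK2 and CLK4, taken by symbol from a table of 23368 genes. All 10 varied between libraries and were tested together with the other varying genes, 19694 in all. The 21 RNA-seq libraries form 7 groups, with 3 biological replicates in each. They came from untreated cells, sampled at 0 h, and cells at 4, 8 or 24 h after 300 μM H2O2, an oxidant, and cells at the same times after 400 ng/ml NCS, a drug that breaks both strands of DNA. Medium was replaced with fresh medium at treatment in both arms, and there was no untreated group at 4, 8 or 24 h, so treatment, fresh medium and time in culture cannot be told apart in a comparison with untreated cells. All groups share hTERT immortalization and medium with added EGF and puromycin.

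SR proteins bind exonic RNA through an RNA recognition motif and carry a domain rich in arginine and serine, by which they recruit the spliceosome to nearby splice sites. Their serines are phosphorylated by SRPK kinases, mainly in the cytoplasm, and by CLK kinases in the nucleus, and phosphorylation sets where in the cell they are found and how they act in splicing. Many genes of both families also make transcripts that are degraded or retained in the nucleus, through a poison exon or a retained intron, and in this way limit their own protein. The values here are sums per gene and cannot separate such transcripts from coding ones. GENCODE v29, which is on another genome build than these data, was used only for transcript types and for overlapping genes. In it SRSF7 has 12 transcripts, 6 of them of the nonsense-mediated decay type. CLK1 has 15 transcripts, 8 of them with a retained intron. CLK2 has 7 transcripts, and its counts of both types are 0.

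Values are rLog values, which the authors made from read counts with DESeq2. They are on a log2 scale, are normalized for library size and shrink differences, most strongly where reads are few. Since counts cannot be read from them, sequencing depth is unknown, and no detection limit was calculated. In the following, a gene rose or fell when the adjusted p was under 0.05 in limma, fitted once to all 7 groups with Benjamini-Hochberg adjustment over all 19694 genes. Differences are log2 differences between group means, and their standard errors (SE) were the same in each comparison of 2 groups for a given gene. With 3 libraries against 3, an exact permutation test cannot give a two-sided p below 0.1, so for single genes the text says whether the libraries of both groups overlapped. The nestin gene NES lay between 11.8 and 12.3 and VIM between 16.8 and 17.2 in all libraries, while the acinar genes PRSS1 and CELA3A and the endocrine gene INS were listed at 0 throughout. The duct keratin gene KRT19 was between 0.58 and 0.73, on a scale that ran from -2.31 to 20.3. Other duct genes were EPCAM at -1.77 to -1.74, CFTR at -1.34 to -1.30 and CDH1 at 3.70 to 3.88. The keratin genes KRT18 (11.4 to 11.9) and KRT8 (7.73 to 8.28) stood higher. In H2O2 at 8 h, replicate 2 stood apart from the other libraries of its group, with Euclidean distances of 14.74 and 15.15 over the tested genes, while all other pairs within a group lay between 8.94 and 11.44. Results at 8 h are therefore also given without it where a call depends on it. In bulk samples, fewer cells with a transcript and less of it per cell cannot be told apart.

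Promoter sequence is shown for SRSF3 and SRSF7, the SR genes that rose early in H2O2, and for CLK2, the kinase gene that fell there. The RefSeq table of promoters (build GRCh38.p14) had an entry for 9 of the 10 genes and a further start site each for SRSF7 and CLK1. The letters below are the 250 bases before the start site, 5′ to 3′ in the direction of transcription. Capitals mark matches, on either strand, to the TATA box TATAAA and the CCAAT box.
SRSF3 (chr6:36594112-36594361, plus strand): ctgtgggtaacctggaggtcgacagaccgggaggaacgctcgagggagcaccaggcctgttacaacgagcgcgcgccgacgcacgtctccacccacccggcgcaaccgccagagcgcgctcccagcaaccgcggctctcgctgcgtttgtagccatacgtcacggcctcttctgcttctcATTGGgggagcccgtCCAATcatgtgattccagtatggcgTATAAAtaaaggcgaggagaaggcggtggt
SRSF7 (chr2:38751362-38751611, minus strand): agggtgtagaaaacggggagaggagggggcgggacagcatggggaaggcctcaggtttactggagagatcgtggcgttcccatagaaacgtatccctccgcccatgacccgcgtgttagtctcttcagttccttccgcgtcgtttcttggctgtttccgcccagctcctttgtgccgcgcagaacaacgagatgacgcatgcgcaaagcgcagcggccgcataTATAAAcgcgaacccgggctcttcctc
CLK2 (chr1:155273505-155273754, minus strand): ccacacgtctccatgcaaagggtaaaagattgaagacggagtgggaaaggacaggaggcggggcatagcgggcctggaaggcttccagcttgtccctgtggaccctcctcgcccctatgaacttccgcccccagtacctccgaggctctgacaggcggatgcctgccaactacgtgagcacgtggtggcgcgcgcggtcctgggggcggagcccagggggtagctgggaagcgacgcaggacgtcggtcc
The TATA box began at -30 in SRSF3 and at -27 in SRSF7, counted from the start site. It was found in 2 of the 9 genes and in 10.7% of 35116 promoters of the same length. The CCAAT letters stood in the SRSF3 promoter at -70 and -55 and were found in 1 of the 9 genes and in 32% of all promoters. The SRSF7 sequence is that of the downstream start site, and the upstream one (chr2:38751495-38751744) held neither match. The cyclic AMP response element TGACGTCA (1.65% of all promoters), the AP-1 site TGANTCA (6.57%), the E2F sites TTTCCCGC and TTTCGCGC (1.8% together) and the heat shock pair GAANNTTC (5.78%) matched in 0 of the 9 genes. A match or its lack describes only the letters in this window.

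**Figure D1:**
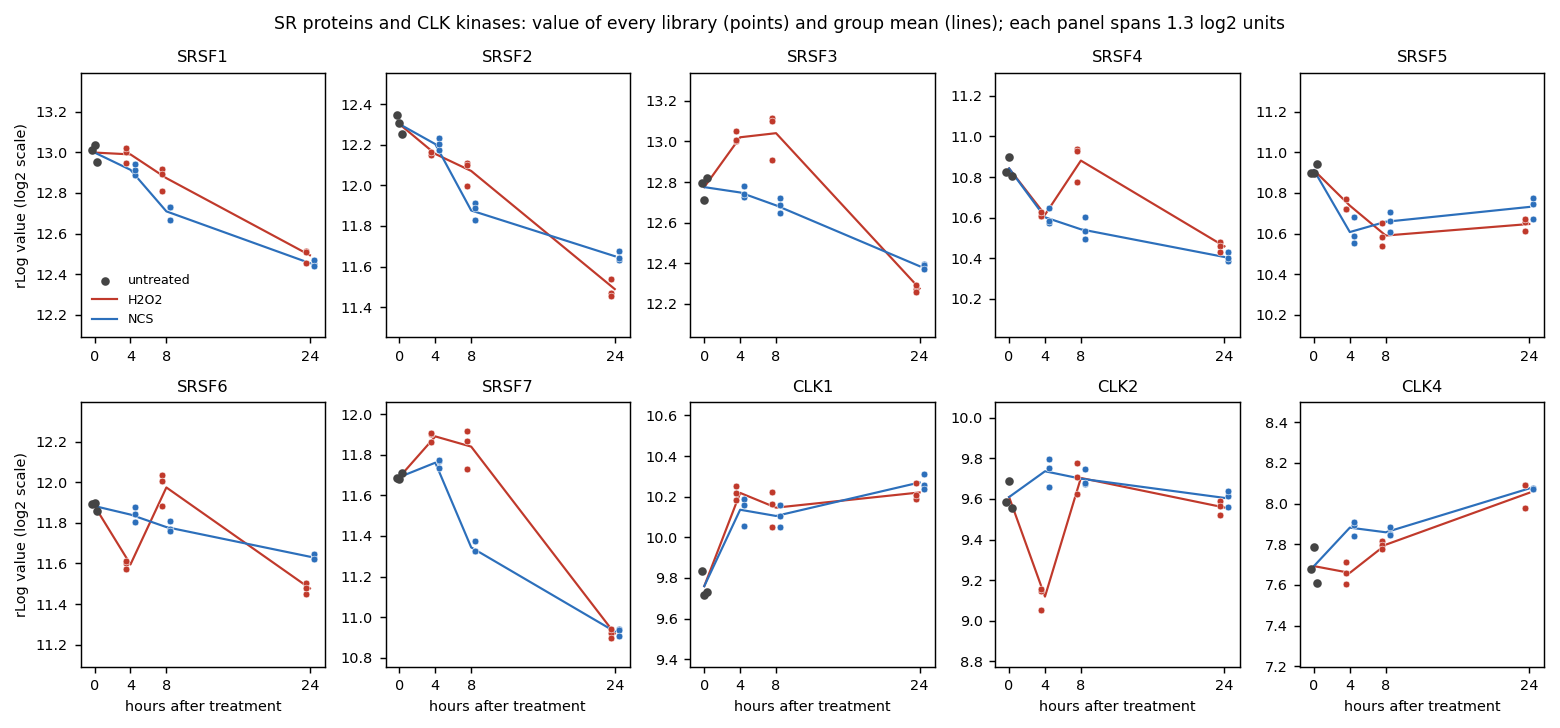
Each panel plots 1 gene, with hours after treatment on the x axis and the rLog value (log2 scale) on the y axis, points for libraries and lines through group means, in grey for untreated cells, red for H2O2 and blue for NCS. The early H2O2 trough of CLK2 at 9.05 to 9.16, the high values of SRSF3 and SRSF7 in H2O2 at 4 and 8 h, the 24 h fall of the SR genes and the rise of CLK1 under both agents can be seen.

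At 24 h every SR gene had fallen under both agents. SRSF2 and SRSF7 fell most in H2O2, and SRSF7 and SRSF2 in NCS. CLK1 and CLK4 had risen at that time under both agents, and CLK2 did not pass the test under either. The comparisons of H2O2 and of NCS with untreated cells use the same untreated libraries, so their values stand side by side and are not independent. Over all 10 genes, 2 rose and 7 fell in H2O2 at 24 h, and the counts in NCS at 24 h were the same. The shares of all 19694 genes that passed were 40% in H2O2 at 24 h (20.2% higher and 19.9% lower) and 38% in NCS (19.6% higher and 18.4% lower). By mean value the 10 genes lie between percentile 54.4 (CLK4) and percentile 97.3 (SRSF1) of the tested genes, and calls are more frequent among genes with higher values. Among the 11681 genes with a mean value of at least 5, 65.3% passed in H2O2 (33.2% lower) and 63.4% in NCS (31.1% lower). With library medians aligned, 64.8% of all calls in H2O2 at 24 h were lower, and after quantile normalization 44.5%, against 49.6% in the deposited scale. In NCS at 24 h these shares were 46.1%, 41.9% and 48.4%. For 9 of the 10 genes the libraries at 24 h did not overlap those of untreated cells under either agent, against 59.7% of all genes in H2O2 and 44.5% in NCS. No gene among the 10 also had a log2 difference over 1 in size in any comparison. Against untreated cells 0.696%, 0.518% and 1.61% of all genes did so in H2O2 at 4, 8 and 24 h, and 0.218%, 0.34% and 1.5% in NCS. Between the agents 0.574%, 0.162% and 0.0152% did so. With 0.58 as the limit, 2 of the 10 passed at 24 h under each agent (SRSF2 and SRSF7), against 4.56% of all genes in H2O2 and 3.97% in NCS. At 4 and 8 h 0 of the 10 passed it, against 2.91% and 2.44% in H2O2 and 1% and 1.29% in NCS.

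SRSF7 encodes an SR protein with a zinc knuckle, which also acts in 3′ end formation and mRNA export. In untreated cells its libraries read 11.68, 11.68 and 11.71. In H2O2 they read 11.86, 11.90 and 11.91 at 4 h, 11.87, 11.73 and 11.92 at 8 h, then 10.92, 10.90 and 10.94 at 24 h. In NCS they read 11.74, 11.77 and 11.78 at 4 h, 11.33, 11.38 and 11.33 at 8 h, then 10.94, 10.94 and 10.91 at 24 h. All H2O2 libraries at 4 and 8 h were thus above all untreated ones, and so were the NCS libraries at 4 h. All libraries of both agents at 24 h were below all untreated ones. The rise 4 h after H2O2 was 0.20 (SE 0.033, adjusted p = 6.48e-05 from limma). After 8 h it was 0.15 (adjusted p = 0.00126), which became 0.20 without replicate 2 and did not pass when only the groups compared were fitted (0.0707). By 24 h SRSF7 had fallen by 0.77 in H2O2 (adjusted p = 8.91e-13), which is 1.71-fold, and by 0.76 in NCS (adjusted p = 1.02e-12). In NCS the difference at 4 h was 0.071 (adjusted p = 0.177, and 0.021 without replicate 2 of H2O2 at 8 h). By 8 h of NCS the fall was already 0.35 (adjusted p = 2.42e-07).

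SRSF3, the smallest of the classical SR proteins, which couples splicing to polyadenylation and export, followed a similar course. Its untreated libraries read 12.79, 12.71 and 12.82. In H2O2 they read 13.00, 13.01 and 13.05 at 4 h, 13.11, 12.91 and 13.10 at 8 h, then 12.27, 12.30 and 12.26 at 24 h. In NCS they read 12.72, 12.74 and 12.78 at 4 h, 12.65, 12.72 and 12.69 at 8 h, then 12.40, 12.39 and 12.37 at 24 h. The H2O2 libraries were all above untreated ones at 4 and 8 h, while NCS libraries at these times overlapped them. In H2O2 SRSF3 rose by 0.25 in the first 4 h (SE 0.040, adjusted p = 5.78e-05 from limma), and after 8 h its rise was 0.27 (adjusted p = 2.98e-05), or 0.33 without replicate 2. It then fell below untreated cells by 0.50 in H2O2 (adjusted p = 6.29e-09) and 0.39 in NCS (adjusted p = 2.15e-07) at 24 h. The NCS difference at 8 h was -0.090 (adjusted p = 0.126). That value passed under 3 of the 27 alternatives, among them without replicate 2 of H2O2 at 8 h (0.0126).

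SRSF2, known as SC35 and a marker of nuclear speckles, fell at each time under both agents. Its untreated libraries read 12.35, 12.31 and 12.25, and those at 24 h read 11.54, 11.47 and 11.46 in H2O2 and 11.68, 11.63 and 11.64 in NCS. These groups did not overlap. The differences in H2O2 were -0.15 at 4 h, -0.23 at 8 h and -0.81 at 24 h (SE 0.032, adjusted p = 2.75e-13 from limma at 24 h), the last a 1.76-fold fall. In NCS they were -0.099, -0.43 and -0.65. The first of these had an adjusted p of 0.0412 in limma, with a range from 0.0105 to 0.197 over the alternatives. It did not pass when only the groups compared were fitted (0.0794), after quantile normalization (0.167) or without replicate 1 or 2 of untreated cells (0.197 and 0.1), 1 or 3 of NCS at 4 h (0.162 and 0.0921), any 1 replicate of H2O2 at 4 h (0.0508 to 0.0511), replicate 2 of NCS at 8 h (0.0504) or replicate 3 of NCS at 24 h (0.0506). On the opposite strand SRSF2 overlaps MFSD11 in GENCODE v29. The strand setting of the counting is not given in the sources used here, so the counts of SRSF2 are uncertain to that extent.

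SRSF1, the founding member, which controls splice site choice and also translation and decay of mRNA, showed no difference past the threshold in the first 4 h of H2O2. Its untreated libraries read 13.01, 13.04 and 12.95 and those in H2O2 at 4 h 13.00, 12.95 and 13.02, a difference of -0.009 (SE 0.030, adjusted p = 0.868 from limma) with overlapping libraries. In H2O2 SRSF1 had fallen by 0.13 after 8 h (adjusted p = 0.00227, and 0.0551 with only the groups compared) and by 0.51 after 24 h (7.81e-11). In NCS the values were -0.085 at 4 h (adjusted p = 0.0592), -0.29 at 8 h and -0.54 at 24 h (adjusted p = 2.89e-11). The value at 4 h passed under 6 of the 27 alternatives, with adjusted p from 0.013 to 0.22 over all of them. At 24 h the libraries lay between 12.45 and 12.52 in H2O2 and between 12.44 and 12.47 in NCS, below all others of this gene. In GENCODE v29 SRSF1 overlaps a protein coding gene on its own strand, AC015813.2, so its counts are uncertain to that extent.

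SRSF4 and SRSF6, a pair of larger SR proteins with 2 RNA recognition motifs each, dipped and recovered in H2O2 before they fell. SRSF6 read 11.89, 11.90 and 11.86 in untreated cells, 11.60, 11.57 and 11.61 in H2O2 at 4 h, 12.036, 11.88 and 12.005 at 8 h, then 11.51, 11.45 and 11.48 at 24 h. The libraries at 4 h were all below untreated ones, those at 8 h overlapped them, and those at 24 h were the lowest. SRSF6 fell by 0.29 at 4 h (SE 0.031, adjusted p = 4.56e-07 from limma). At 8 h it was 0.092 above untreated cells (adjusted p = 0.0249), which did not pass with only the groups compared (0.182) or without replicate 3 of untreated cells (0.079, adjusted p = 0.095), replicate 1 (0.061, 0.16) or replicate 3 (0.076, 0.104) of H2O2 at 8 h, and was 0.14 without replicate 2. At 24 h it had fallen by 0.41 (adjusted p = 3.05e-09). From 4 to 8 h it rose by 0.38 (adjusted p = 1.75e-08). SRSF4 read 10.82, 10.90 and 10.81 in untreated cells, 10.61, 10.61 and 10.63 in H2O2 at 4 h, 10.94, 10.78 and 10.93 at 8 h, then 10.48, 10.46 and 10.43 at 24 h. Its fall at 4 h was 0.23 (SE 0.038, adjusted p = 7.51e-05) and its rise from 4 to 8 h 0.27 (adjusted p = 1.48e-05). The difference from untreated cells at 8 h was 0.039 (adjusted p = 0.507), and 0.091 without replicate 2 (adjusted p = 0.0347). In NCS the step from 4 to 8 h passed for neither gene. There SRSF4 fell by 0.24, 0.30 and 0.44 at the 3 times (adjusted p = 2.38e-08 at the last). SRSF6 had differences of -0.042 (adjusted p = 0.465), -0.10 (0.0187) and -0.25 (2.26e-06) in NCS, and the second did not pass without replicate 1 or 2 of untreated cells (0.06 and 0.0664) or replicate 2 or 3 of NCS at 8 h (0.0568 and 0.0746).

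SRSF5, an SR protein whose gene also responds to insulin, fell at each time under both agents. Its untreated libraries read 10.90, 10.90 and 10.94, and all 18 treated libraries lay between 10.54 and 10.78, below them. The falls were 0.17, 0.32 and 0.26 in H2O2 at 4, 8 and 24 h (SE 0.037, adjusted p between 1.16e-06 and 0.000685 from limma) and 0.30, 0.25 and 0.18 in NCS (adjusted p between 7.18e-06 and 0.000516). The differences between 24 and 8 h were 0.057 in H2O2 (adjusted p = 0.244) and 0.073 in NCS (adjusted p = 0.159). The 6 other SR genes fell in this interval under both agents, and the difference of SRSF5 from them was not tested.

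**Figure D2:**
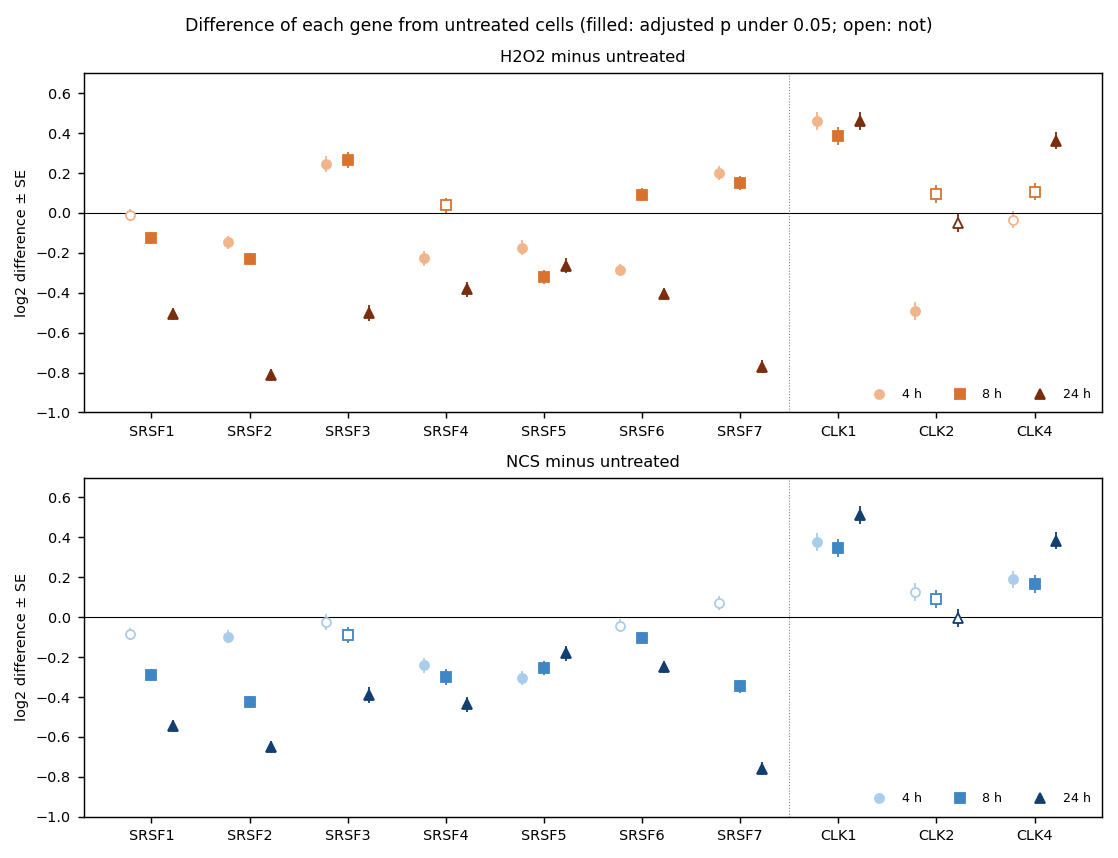
The x axis lists the 10 genes and the y axis gives the log2 difference from untreated cells with its standard error, H2O2 in the upper and NCS in the lower panel, with 1 symbol per time and filled symbols for an adjusted p under 0.05. The SR genes are all below 0 at 24 h, down to -0.81 for SRSF2, while CLK1 is above 0 at each time.

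CLK1, the kinase that phosphorylates SR proteins in the nucleus and can release them from speckles, rose at each time. Its untreated libraries read 9.84, 9.71 and 9.73. In H2O2 they read 10.25, 10.22 and 10.19 at 4 h, 10.22, 10.17 and 10.05 at 8 h, then 10.27, 10.19 and 10.21 at 24 h. In NCS they read 10.06, 10.19 and 10.16 at 4 h, 10.10, 10.16 and 10.05 at 8 h, then 10.26, 10.31 and 10.24 at 24 h. Every treated library was above every untreated one, and treated groups that were neighbours in level overlapped. The rises in H2O2 were 0.46, 0.39 and 0.46 (SE 0.045, adjusted p = 1.51e-07, 1.58e-06 and 9.51e-08 from limma), which is 1.37-fold at 4 h. Those in NCS were 0.38, 0.35 and 0.51 (adjusted p = 7.08e-06, 1.08e-05 and 2.69e-08).

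CLK4, the closest relative of CLK1, passed the test from 4 h on in NCS and at 24 h in H2O2. Its untreated libraries read 7.68, 7.79 and 7.61, the lowest values of the 10 genes, where rLog shrinks differences more. In H2O2 they read 7.60, 7.66 and 7.71 at 4 h, 7.82, 7.80 and 7.78 at 8 h, then 8.09, 8.09 and 7.98 at 24 h. In NCS they read 7.89, 7.84 and 7.91 at 4 h, 7.88, 7.85 and 7.85 at 8 h, then 8.07, 8.08 and 8.07 at 24 h. The NCS libraries were above untreated ones at all times, and the H2O2 libraries at 24 h. In NCS the rise was 0.19 at 4 h (SE 0.043, adjusted p = 0.00392 from limma), 0.17 at 8 h and 0.38 at 24 h. The first 2 did not pass when only the groups compared were fitted (adjusted p = 0.0609 and 0.0721), and the 8 h value did not without replicate 3 of untreated cells (0.0506). In H2O2 the 3 differences, by time, were -0.033, 0.11 and 0.36 (adjusted p = 0.576, 0.0628 and 1.25e-06).

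CLK2, a further SR protein kinase, which also acts in insulin signalling in liver, had the deepest early fall of the 10 genes. Its libraries read 9.59, 9.69 and 9.55 in untreated cells and 9.15, 9.05 and 9.16 in H2O2 at 4 h, without overlap. At 8 h they read 9.77, 9.63 and 9.71, and at 24 h 9.59, 9.57 and 9.52, within or near the untreated range. In NCS the libraries were between 9.56 and 9.80 at all times and overlapped untreated ones. The fall at 4 h was 0.49 (SE 0.045, adjusted p = 6.81e-08 from limma), or 1.40-fold, and was followed by a rise of 0.58 from 4 to 8 h (adjusted p = 9.26e-09). The differences from untreated cells were 0.094 at 8 h in H2O2 (adjusted p = 0.119, and 0.13 with adjusted p = 0.0334 without replicate 2), -0.051 at 24 h (0.446), and 0.13, 0.090 and -0.0041 in NCS (0.0632, 0.181 and 0.97). The NCS value at 4 h passed under 5 of the 27 alternatives: without replicate 2 of untreated cells (0.17, adjusted p = 0.0237), replicate 1 of NCS at 4 h (0.17, 0.025) or replicate 2 of H2O2 at 8 h (0.13, 0.0432), after quantile normalization (0.14, 0.0329) and among genes with a mean of at least 5 (0.13, 0.0307).

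By time, the 10 genes split as follows against untreated cells. In H2O2 at 4 h, 3 rose and 5 fell, while 45.9% of all genes passed (26.2% higher and 19.7% lower). Among those with a mean of at least 5, 56.4% passed (23.1% higher and 33.3% lower). Of all calls there, 57.1% were higher on the deposited scale and 46.1% with library medians aligned. In H2O2 at 8 h, 4 rose and 3 fell, against 37.4% of all genes (18.8% higher and 18.6% lower). The share was 59.1% at a mean of at least 5 (27% higher and 32% lower). Of the 10 genes, 9 passed without replicate 2 and 4 when only the groups compared were fitted. In NCS at 4 h, 2 rose and 3 fell, and 3 of the 10 passed when only the groups compared were fitted. The share of all genes was 17.2% (7.47% higher and 9.72% lower). It was 32.4% at a mean of at least 5 (14% higher and 18.4% lower). In NCS at 8 h, 2 rose and 6 fell, against 23.9% of all genes (10.5% higher and 13.3% lower). The share was 43% at a mean of at least 5 (19% higher and 24% lower). Of all calls there, 55.9% were lower on the deposited scale, 77.3% with library medians aligned and 47% after quantile normalization. The libraries did not overlap for 8, 6, 7 and 8 of the 10 genes in these groups, against 49.5%, 42%, 30% and 33.8% of all genes.

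The direct comparison of the agents at the same time shows where the courses parted, and it does not share the untreated libraries. At 4 h the values of CLK2 were 0.62 lower in H2O2 than in NCS (SE 0.045, adjusted p = 3.25e-09 from limma), or 1.53-fold. SRSF6 was 0.25 lower (adjusted p = 3.22e-06) and CLK4 0.22 lower (adjusted p = 0.000325). Higher in H2O2 were SRSF3 by 0.27 (adjusted p = 2.01e-05), SRSF5 by 0.13 (0.00708), SRSF7 by 0.13 (0.00365) and SRSF1 by 0.076 (0.0463). This last call was lost in 14 of 27 alternatives, with adjusted p between 0.0231 and 0.542. Among them were the omission of replicate 1 or 3 of H2O2 (0.115 and 0.169) or replicate 1 or 2 of NCS at that time (0.148 and 0.0992). The others were quantile normalization (0.542), no trend (0.054) and the omission of replicate 1 of untreated cells, 1 or 2 of H2O2 at 24 h, 1 or 2 of NCS at 8 h or any 1 of NCS at 24 h (0.0513 to 0.0553). In all, 4 of the 10 genes were higher and 3 lower at 4 h, against 44.4% of all genes and 53.9% of those with a mean of at least 5 that passed (over all genes 26.3% higher and 18% lower, and 59.3% of calls higher, or 45.9% after quantile normalization). At a mean of at least 5, 23.5% were higher and 30.4% lower. The libraries did not overlap for 8 of the 10 genes, against 50.1% of all genes, and 1 passed the limit of 0.58 (CLK2), against 2.63%.

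At 8 h the SR genes were higher in H2O2 with the exception of SRSF5, and no kinase gene passed the test. SRSF7 differed most, by 0.50 (SE 0.033, adjusted p = 4.11e-09 from limma), or 1.41-fold, with H2O2 libraries from 11.73 to 11.92 and NCS libraries from 11.33 to 11.38. SRSF3 was 0.36 higher, SRSF4 0.34, SRSF2 0.19, SRSF6 0.20 and SRSF1 0.16 (adjusted p between 1.73e-06 and 0.000269). Without replicate 2 of H2O2 these differences were 0.55 for SRSF7, 0.42 for SRSF3, 0.39 for SRSF4, 0.18 for SRSF2, 0.24 for SRSF6 and 0.15 for SRSF1. SRSF5 had a difference of -0.068 (adjusted p = 0.177), CLK1 of 0.041 (0.562), CLK2 of 0.0035 (0.965) and CLK4 of -0.061 (0.321). The count was 6 higher and 0 lower, with 34.1% of all genes past the threshold, 18.7% higher and 15.4% lower. Among genes with a mean value of at least 5, 27.7% were higher and 26.6% lower. The libraries did not overlap for 7 of the 10, against 40.8% of all genes, and 0 passed the limit of 0.58, against 0.919%. With library medians aligned, 72.7% of all calls were higher, and after quantile normalization 48%, against 54.7% on the deposited scale. At 24 h SRSF2 was 0.16 lower in H2O2 than in NCS (adjusted p = 0.00104) and SRSF6 also 0.16 lower (adjusted p = 0.00103). These were 2 of the 10 genes, against 21.9% of all genes (10.9% lower and 11% higher). The share was 38.8% at a mean of at least 5 (19.1% lower and 19.7% higher). The libraries did not overlap for 3 of the 10, against 36.5%, and 0 passed 0.58, against 0.457%. With library medians aligned 4 of the 10 passed, and 76.5% of all calls were lower, against 49.7% on the deposited scale and 50.4% after quantile normalization. SRSF3 had a difference of -0.11 at 24 h (adjusted p = 0.0589). It passed under 5 of the 27 alternatives, among them without replicate 2 of H2O2 at 8 h (0.00343).

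**Figure D3:**
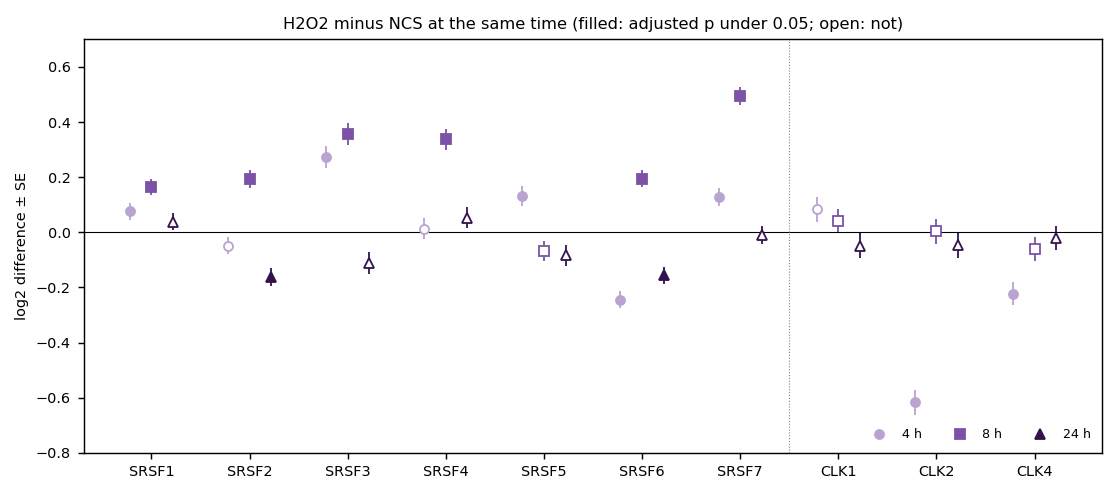
The x axis lists the 10 genes and the y axis gives the log2 difference of H2O2 from NCS at the same time with its standard error, with 1 symbol per time and filled symbols for an adjusted p under 0.05. CLK2 at 4 h is lowest at -0.62, SRSF7 at 8 h is highest at 0.50, and most symbols at 24 h are open and near 0.

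Whether the difference between the agents changed from 4 to 24 h was tested as an interaction. It passed for 5 of the 10 genes, CLK2 (-0.57, SE 0.064, adjusted p = 1.41e-06 from limma), CLK4 (-0.20, adjusted p = 0.0131), SRSF3 (0.38, adjusted p = 3.26e-05), SRSF5 (0.21, adjusted p = 0.00283) and SRSF7 (0.14, adjusted p = 0.0239). Among genes with a mean of at least 5, 51.4% passed (23.1% higher and 28.3% lower). For all genes the share was 39.4% (22.7% higher and 16.6% lower). Of all calls 57.7% were higher, or 71.6% with library medians aligned and 48.3% after quantile normalization. With 0.58 as the limit the share was 3.13%, against 0 of the 10 genes, and with 1 it was 0.564%. A positive value means that H2O2 stood higher against NCS at 4 h than at 24 h. The values for SRSF1, SRSF2, SRSF4, SRSF6 and CLK1 were 0.037, 0.11, -0.040, -0.090 and 0.13 (adjusted p = 0.522, 0.0558, 0.595, 0.116 and 0.112). The SRSF2 value passed under 9 of the 27 alternatives (adjusted p down to 0.0124). That of SRSF6 passed under 3, among them without replicate 2 of H2O2 at 8 h (0.0254). That of CLK1 passed under 1, with library medians aligned (0.0328).

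Between successive times, 6 of the 7 SR genes fell from 8 to 24 h in H2O2, and SRSF5 did not pass the test there (0.057, adjusted p = 0.244). SRSF7 fell by 0.92 in this interval (SE 0.033, adjusted p = 3.22e-13 from limma), which is 1.89-fold, SRSF3 by 0.76, SRSF2 by 0.58, SRSF6 by 0.50, SRSF4 by 0.42 and SRSF1 by 0.38. CLK2 fell by 0.15 (adjusted p = 0.0137), a call that was lost without replicate 1 of H2O2 at 8 h (-0.11, adjusted p = 0.085) or replicate 3 at 24 h (-0.13, 0.0602). CLK4 rose by 0.26 (adjusted p = 7.6e-05). This made 1 gene that rose and 7 that fell, where 42.6% of all genes passed (19.4% higher and 23.2% lower). The share was 66.1% at a mean of at least 5 (31.5% higher and 34.6% lower). Of all calls 54.5% were lower, or 67.5% with library medians aligned and 47.8% after quantile normalization. The limit of 0.58 was passed by 3 genes, SRSF7, SRSF3 and SRSF2, against 2.72% of all genes. From 4 to 8 h in H2O2, 4 genes rose (CLK2, SRSF6, SRSF4 and CLK4) and 3 fell (SRSF1, SRSF2 and SRSF5). There 45.7% of all genes passed (18% higher and 27.7% lower). The share was 59.1% at a mean of at least 5 (29.8% higher and 29.3% lower). SRSF3 had a difference of 0.020 in this step (adjusted p = 0.732), which became 0.086 without replicate 2 of H2O2 at 8 h (0.0196). SRSF5 fell by 0.15 (adjusted p = 0.00281). The fall of SRSF1, 0.12 (adjusted p = 0.00346), did not pass when only the groups compared were fitted (0.0523), and the rise of CLK4, 0.14 (0.0129), did not without replicate 1 of H2O2 at 4 h (0.11, 0.0676). The fall of SRSF2, 0.084 (adjusted p = 0.0407), had adjusted p from 0.0172 to 0.24 over the alternatives, and it did not pass with library medians aligned (0.0727), after quantile normalization (0.0915), with only the groups compared (0.112) or without any 1 replicate of H2O2 at 4 h (0.072 to 0.0959) or replicate 3 at 8 h (0.24). CLK2 alone passed 0.58, against 2.23% of all genes. In NCS the same 8 to 24 h interval held falls of 0.41 for SRSF7, 0.30 for SRSF3, 0.25 for SRSF1, 0.22 for SRSF2, 0.15 for SRSF6 and 0.14 for SRSF4, and rises of 0.22 for CLK4 and 0.16 for CLK1. The SRSF4 call was lost without replicate 1 of NCS at 8 h (-0.11, adjusted p = 0.0642) and the CLK1 call without replicate 3 (0.14, 0.0502). That is 2 rises and 6 falls, against 29.9% of all genes and 51.8% of those with a mean of at least 5 (over all genes 14.9% higher and 15% lower, and 50.2% of calls lower, or 25.5% with library medians aligned). At a mean of at least 5, 25.8% were higher and 26.1% lower. From 4 to 8 h in NCS, SRSF7 fell by 0.42, SRSF2 by 0.33 and SRSF1 by 0.20. These were 3 of the 10 genes, against 13.7% of all genes (7.5% lower and 6.16% higher). The share was 26.6% at a mean of at least 5 (14.6% lower and 12% higher). In NCS 0 genes passed 0.58 in either step, against 0.147% and 1.73%. The libraries did not overlap for 7 and 8 of the 10 genes in the H2O2 steps (46.3% and 48.5% of all genes) and for 4 and 9 in the NCS steps (28.3% and 40.9%), and over 1 stood 0.208%, 0.416%, 0.0152% and 0.371% of all genes.

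The other kinases and phosphatases of SR proteins gave a mixed picture. CLK3, the CLK family member outside the set, fell in H2O2 at 8 h by 0.18 (SE 0.030, adjusted p = 8.21e-05 from limma) and had differences from -0.071 to 0.044 in the other groups, none of which passed. SRPK1, which phosphorylates SR proteins in the cytoplasm, fell in all 6 treated groups, by 0.12, 0.31 and 0.32 in H2O2 and by 0.074, 0.13 and 0.24 in NCS (adjusted p between 5.83e-10 and 0.0238). DYRK3, a kinase that dissolves nuclear speckles and other condensates, rose in all 6, by 0.77, 1.00 and 0.94 in H2O2 and by 0.65, 0.59 and 0.65 in NCS. PPP1R8, a nuclear regulator of protein phosphatase 1, fell by 0.31 in H2O2 at 4 h (adjusted p = 4.02e-08) and was 0.28 lower there than in NCS. PPP1CC, a catalytic subunit of that phosphatase, fell by 0.40 in H2O2 and 0.45 in NCS at 24 h. Of 14 such genes, 3 rose and 5 fell in H2O2 at 24 h, and 3 rose and 6 fell in NCS, where 65.3% and 63.4% of genes with a mean of at least 5 passed.

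The fall at 24 h extended to other splicing factors. Of 19 other SR and SR-related genes, 0 rose and 16 fell in H2O2, and 0 rose and 15 fell in NCS, with medians of -0.22 and -0.20, where the median over all tested genes was -0.00034 and -0.00014. The shares of lower genes to set beside the counts of falls at 24 h were 19.9% and 18.4% of all genes, and 33.2% and 31.1% of those with a mean of at least 5. TRA2B, a splicing activator related to the SR proteins, fell by 0.72 after H2O2 (limma SE 0.032, adjusted p = 1.45e-12) and its fall after NCS was 0.65 (adjusted p = 6.02e-12). SRRM1, a coactivator that bridges SR proteins, fell by 0.48 and 0.45. The hnRNP genes, whose products often oppose SR proteins at splice sites, fell in 20 and 21 of 23 cases (medians -0.39 and -0.44). Among them HNRNPAB fell by 0.72 and 0.76 and HNRNPR by 0.71 and 0.70. Of 37 genes of the core spliceosome 31 fell under each agent, at medians of -0.23 and -0.26, with SNRPD1, a part of the Sm ring, at -0.58 and -0.62. For the 7 SR genes the medians were -0.50 and -0.44. At 8 h in H2O2, 3 of the 7 SR genes had risen and 3 had fallen, and 1 of 23 hnRNP genes had risen and 16 had fallen. Of 15 genes of nonsense-mediated decay and the exon junction complex, 9 had risen and 0 had fallen. Among genes with a mean of at least 5, 27% were higher and 32% lower at that time. SMG8, a regulator of the decay kinase SMG1, rose by 0.43 (adjusted p = 4.08e-06). At 24 h, 3 of these 15 had risen and 7 fallen in H2O2, and 2 risen and 11 fallen in NCS.

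**Figure D4:**
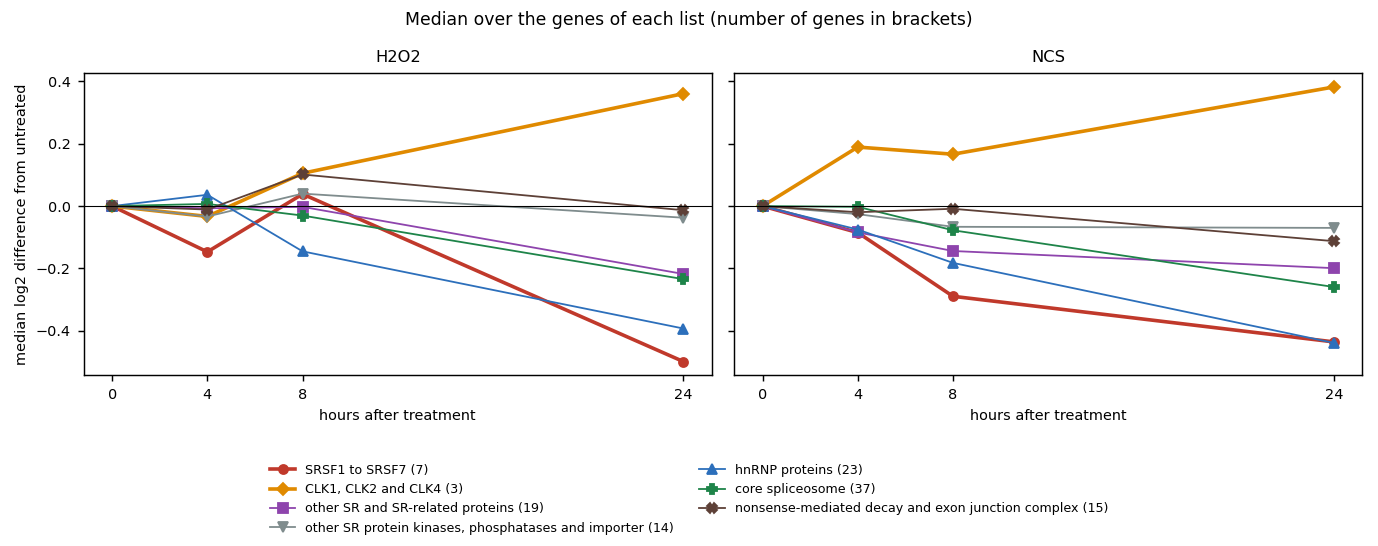
Hours after treatment are on the x axis and the median log2 difference from untreated cells on the y axis, set at 0 for untreated cells, with 1 line per gene list and the number of its genes in brackets, H2O2 left and NCS right. The median of the SR genes ends at -0.50 and -0.44, and that of the decay genes stands at 0.10 in H2O2 at 8 h. The median of the 3 CLK genes ends at 0.36 and 0.38, which are the values of CLK4, while CLK2 was at -0.051 and -0.0041.

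Genes of proliferation moved in the same libraries. All 18 genes of this list fell at 24 h under each agent, with medians of -1.75 in H2O2 and -1.89 in NCS. Their summed level on the linear scale ran from 55809 to 58361 in untreated cells, from 17239 to 18183 in H2O2 at 24 h and from 15000 to 15982 in NCS at 24 h. MKI67, a marker of cycling cells, fell by 2.51 and 2.73. In H2O2 at 8 h, replicate 2 had an MKI67 value of 12.15, and the other libraries of the group had 11.75. In H2O2 at 4 h the MKI67 value had fallen by 0.85. There SRSF3 and SRSF7 rose, SRSF2, SRSF4, SRSF5 and SRSF6 fell, and SRSF1 did not pass the test. The part of proliferation in the fall of the SR genes was not tested.

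Over the 21 libraries, SRSF1, SRSF2, SRSF3 and SRSF7 had similar patterns, with Pearson correlations from 0.806 to 0.962 in their 6 pairs. The libraries share groups and normalization, so these values describe the group pattern and carry no test. SRSF5 had correlations between 0.0162 and 0.302 with the other SR genes. CLK4 ran opposite to the SR genes, between -0.871 and -0.369, and CLK1 between -0.615 and -0.238, while CLK2 had values between -0.249 and 0.556. The genes outside the set with the most similar pattern were sought by Pearson correlation among 3071 genes whose mean was at least 5 and whose group means spanned at least 0.5. For SRSF7 they were RAN (0.980), the GTPase of nuclear transport, and ORC6 (0.978), a part of the origin recognition complex. For SRSF3 they were PPIF (0.982), a mitochondrial cyclophilin, and RAN (0.963). For SRSF1 they were WBP11 (0.989), a splicing factor, and HNRNPR (0.987), and for SRSF2 WDR76 (0.971) and the cyclin gene CCNE2 (0.970). For CLK2 they were C14orf102 (0.956) and ANKRD50 (0.953), with group means of ANKRD50 of 11.15 in untreated cells, 10.48 in H2O2 at 4 h and 11.24 at 8 h. For CLK1 they were C1orf63 (0.896) and ANGPTL4 (0.878), and for CLK4 the metalloprotease gene PAPPA (0.934) and POU2F2 (0.930). SRSF4 was closest to CTDSPL2 (0.933) and MGC12916 (0.927), SRSF6 to PHRF1 (0.915) and C10orf12 (0.912), and SRSF5 to EGR1 (0.840), an immediate early gene, and ARNT2 (0.812).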

How the data were processed

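RNA-seq of hTERT-HPNE cells comprised 7 groups of 3 biological replicates, grouped by the treatment and time in the labels. Libraries were prepared with a stranded mRNA kit. The authors aligned reads with HISAT2 to hg19, used htseq-count for counting and DESeq2 for the transformation, and the deposited log2 values (rLog) are normalized over all 21 libraries. Versions, annotation and strand setting are not given in the sources used here, and depth is unknown. The 3674 genes at 0 in every library were left out. A single fit in limma 3.58.1 (R 4.3.3) covered all groups, with a mean-variance trend and no other term, and gave 13 comparisons and 1 interaction. It was tested on simulated data. P-values set differences between group means against the spread between replicate libraries, as moderated by limma. Members and gene lists were chosen with earlier results of these data known. Named are the 10 genes, CLK3, SRPK1 and MKI67, up to 3 genes per list and comparison with the largest differences at an adjusted p under 0.05, and the 2 most similar genes per member. The alternatives shifted each library to a common median, applied quantile normalization, kept genes with a mean of 5 or more, fitted only the groups compared, added the replicate block, dropped the trend, asked for a log2 difference over 0.58, or left out each library in turn. Promoter letters came from RefSeq (GRCh38.p14), and their coordinates are not on the build of the files. Tables were made with Python 3.11.15 and pandas 2.3.3, figures with matplotlib 3.10.9.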

Additional observations from a re-analysis of the deposited data

Results flagged for a closer look

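The difference between H2O2 and NCS was not the same at 4 and 24 h for 5 of the 10 genes by the interaction in limma, and each was marked for that reason. CLK2 was 0.62 lower in H2O2 at 4 h and 0.047 lower at 24 h, a change of -0.57 (adjusted p = 1.41e-06). CLK4 had differences of -0.22 and -0.021, a change of -0.20 (adjusted p = 0.0131), which was -0.13 after quantile normalization (adjusted p = 0.0969). SRSF3 went from 0.27 to -0.11, a change of 0.38 (adjusted p = 3.26e-05). SRSF5 went from 0.13 to -0.084, a change of 0.21 (adjusted p = 0.00283). SRSF7 went from 0.13 to -0.010, a change of 0.14 (adjusted p = 0.0239), with adjusted p from 0.051 to 0.058 in 4 of the 21 fits that left out a library: replicate 3 of H2O2 at 4 h, replicate 2 of H2O2 at 24 h, and replicate 1 of NCS at 4 h or at 24 h. Among all genes 39.4% passed this test, and 51.4% of those with a mean of at least 5, a share near that of the 10 genes.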

How the results depend on the processing

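Of 92 differences of the 10 genes that passed, 76 passed in the same direction under all 27 alternatives, and 16 did not pass under at least 1. These 27 are the 21 fits that left out a library and 6 other fits. They do not include the limit of 0.58, which is counted apart below. No called difference changed sign. Differences that did not pass changed sign 20 times, all close to 0. After quantile normalization this held for SRSF1 in the interaction (-0.044), SRSF7 in H2O2 against NCS at 24 h (0.0062), and CLK2 in NCS at 24 h against untreated cells (0.061, and 0.0032 with library medians aligned) and in H2O2 against NCS at 8 h (-0.0079), and for CLK4 in H2O2 at 4 h (0.00024). With 1 library left out it held for SRSF1 in H2O2 at 4 h (0.0095 and 0.012, in a range from -0.033), SRSF3 between 4 and 8 h of H2O2 (-0.016 and -0.0088, range to 0.086), SRSF4 in H2O2 against NCS at 4 h (-0.0012), SRSF7 in H2O2 against NCS at 24 h (0.0012, range from -0.021) and between 4 and 8 h of H2O2 (0.0036, range from -0.089), CLK2 in NCS at 24 h (0.017 to 0.035) and in H2O2 against NCS at 8 h (-0.032, -0.0097 and -0.0077, range to 0.042), and CLK4 in H2O2 at 4 h (0.015, range from -0.075) and against NCS at 24 h (0.017, range from -0.041). With a log2 difference over 0.58, the counts were 2 at 24 h against untreated cells under each agent, 1 in H2O2 against NCS at 4 h, 1 and 3 in the steps from 4 to 8 h and 8 to 24 h of H2O2, and 0 in the other 9 comparisons, since that limit is larger than most differences here. When only the groups compared were fitted, with fewer samples, 4 genes passed in H2O2 at 8 h and 3 in NCS at 4 h, and with library medians aligned 4 passed in H2O2 against NCS at 24 h. The cause was not tested.

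Same-numbered libraries had a mean correlation of deviations of 0.027 (from -0.15 to 0.21, 12 of 63 pairs over 0.1). Differently numbered ones had a mean of -0.014. No clear pairing by number was seen, but with 3 libraries in each group these values cannot exclude one. With the replicate block, the counts in all 14 comparisons stayed within 1.5 times and 2 single values came to pass, those of SRSF1 in NCS at 4 h (adjusted p = 0.0466) and of SRSF2 in the interaction (0.0249). Unknown depth and the shrinkage of rLog limit the size of differences, most of all for CLK4.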
